A study of Mus musculus with 15 samples.

Results

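Mc5r, Shank3, Scin, Slc22a3, Muc13, Sh2d4a, Slc25a21 and Scml2 are 8 genes that stood far higher in normal lineage-negative mouse bone marrow than in normal whole marrow or in leukaemic marrow. They are 8 of the 38315 genes of the normalized count table, and all 8 passed the filter on low values, with 18941 genes in all. The values that chose them were their own levels: each was seen far higher in lineage-negative marrow than in another group. Which group that was is not given gene by gene. Sh2d4a and Slc25a21 had the smallest differences of lineage-negative from whole marrow, 1.74 and 1.20 on the log2 scale, so low values in leukaemia may have chosen them. For the others, low values in whole marrow, in leukaemia or in both may have taken part. The lineage-negative levels are therefore given as a description with no test, and the results below turn on how much of each transcript the leukaemia keeps.

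Total RNA of 15 bone marrow samples was sequenced in bulk. The leukaemic group (AML, acute myeloid leukaemia) was 7 marrows of transgenic mice of the genotype NUP98-NSD1/FLT3-ITD, and normal marrow came from wild-type mice, as 4 whole and 4 lineage-negative samples. The NUP98-NSD1 allele fuses part of a nuclear pore protein to a chromatin-modifying enzyme. The FLT3-ITD allele holds a duplication that activates a cytokine receptor. The promoters that drive these alleles, the strain and age of the mice and the share of leukaemic cells are not given in the sources used here. The leukaemic marrow was not depleted of mature cells, so the lineage-negative group differs from it in preparation as well as in genotype, and those parts cannot be told apart. The labels do not say whether each library came from a separate mouse, so p-values measure the spread between these libraries.

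Lineage-negative marrow is whole marrow from which cells carrying surface antigens of mature blood lineages have been removed. What remains is rich in stem cells and in progenitors of the myeloid, erythroid, megakaryocytic and mast cell lines. Myeloid leukaemia often holds on to parts of a progenitor program while its output of red cells and platelets is blocked. The 8 genes belong to unrelated protein families: a melanocortin receptor, a scaffold, an actin-severing protein, a cation transporter, a mucin, an adaptor, a mitochondrial carrier and a chromatin protein.

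None of the 8 was kept at the lineage-negative level. Muc13 stood at 16.1% of the lineage-negative mean in AML and, under the deposited scaling, above its whole marrow level. Under the same scaling, Mc5r, Scin and Scml2 stood close to their whole marrow means. Shank3 and Slc22a3 lay below whole marrow, and Sh2d4a and Slc25a21 were near 0 in AML while normal whole marrow still held 31.4% and 46.1% of their lineage-negative means.

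Values are normalized counts (estimated reads divided by the size factor of the library), and each error is a standard deviation over the libraries of a group. The estimated depth was 20.3 to 35.1 M reads (M, mega) in the AML group, 11.4 to 17.2 M reads in whole marrow and 20.3 to 28.1 M reads in lineage-negative marrow. A count of 3 reads, used as the floor of detection, was worth 1.96 to 4.09 normalized counts, and it covers counting error only. The deposited scaling placed whole marrow low: the median log2 difference over all genes kept was 0.67 for AML minus whole marrow and 0.59 for lineage-negative minus whole marrow, against 0.02 for AML minus lineage-negative marrow. After TMM scaling (trimmed mean of M values) these medians were −0.01, −0.08 and 0.02. Whole marrow libraries also held a diffuse signal: the mean over 1452 olfactory and vomeronasal receptor genes, which marrow is not known to use, was 7.14 to 13.5 normalized counts there. It was 0.384 to 0.499 in lineage-negative marrow and 0.465 to 3.81 in AML. Low whole marrow values of the 8 genes are read against it below.

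The marker lists separated the groups. Summed over 10 neutrophil genes, lineage-negative marrow held 1031 to 17503 normalized counts, whole marrow 443108 to 1186200 and AML 408053 to 1444800. Summed over 8 monocyte and macrophage genes, AML held 31607 to 60986, whole marrow 7307 to 15490.1 and lineage-negative marrow 5738 to 7820.3. Summed over 12 stem and multipotent cell genes, it held 14668 to 19313, whole marrow 1354 to 2543 and AML 3007 to 5849. In bulk RNA, fewer cells of a type and less RNA per cell cannot be told apart, which holds for every difference below.

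**Figure D1:**
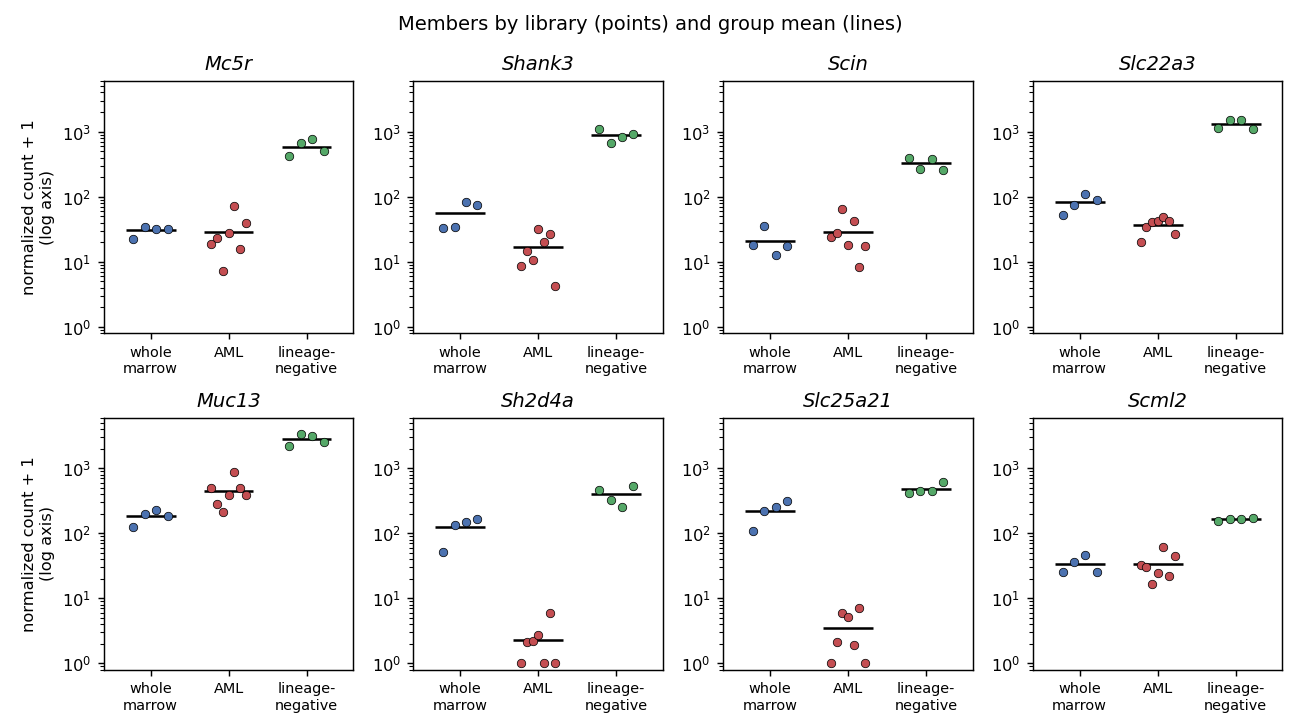
Normalized counts of the 8 genes (log axis of value plus 1, vertical) in each library, by group (horizontal): 4 whole marrow, 7 AML and 4 lineage-negative libraries as points. The AML points lie below all lineage-negative points for each gene, and reach 0 for Sh2d4a and Slc25a21.

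All 8 genes were lower in AML than in lineage-negative marrow in every library, without overlap. Over all genes kept, 17.6% were lower without overlap in this comparison and 12.5% were called lower. Lineage-negative libraries also lay above whole marrow without overlap for all 8, beside 41.1% of all genes. Each gene was chosen on at least 1 of these 2 comparisons, so nothing is read from those counts. AML against whole marrow is the comparison that leaves the lineage-negative libraries out, although it shares AML and whole marrow libraries with those that chose the genes. A low whole marrow value that helped to choose a gene favours a higher call here, and a low AML value a lower call. The p-values of the 8 genes in this comparison are therefore description only. Sh2d4a and Slc25a21, which low AML values may have chosen, were left aside. Of the other 6, limma called 2 lower (adjusted p under 0.05 and a log2 difference of at least 1), Shank3 and Slc22a3, and 1 higher, Muc13. Of all genes kept, 11.3% were called lower and 27.3% higher. Shank3 and Slc22a3 were also below all whole marrow libraries in each AML library, as 7.88% of all genes were. Sh2d4a and Slc25a21 had the same pattern, from which nothing is read.

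**Figure D2:**
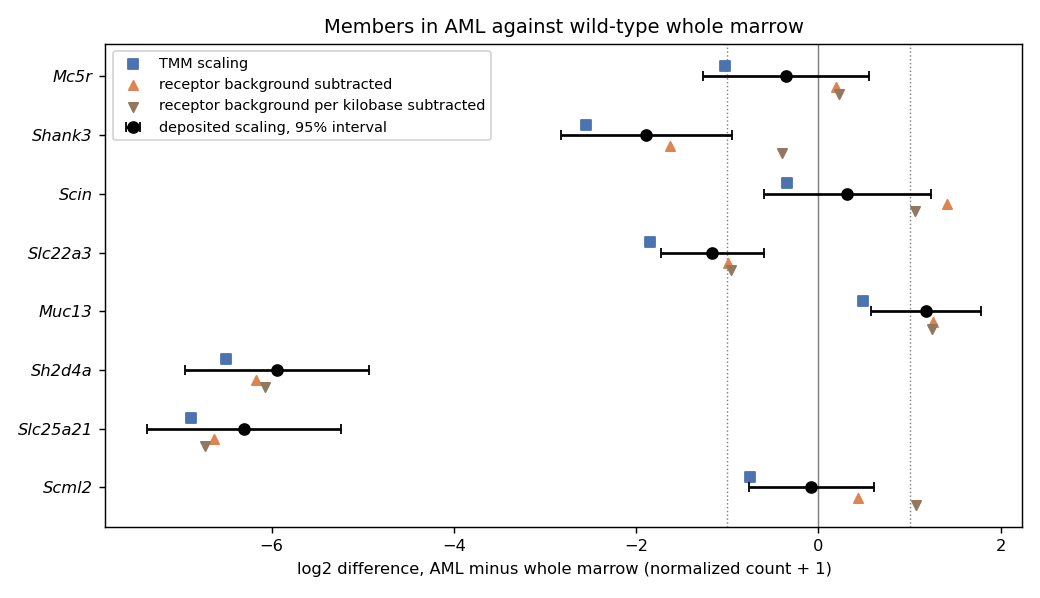
Log2 difference of AML minus whole marrow for each of the 8 genes (points) with the 95% confidence interval from limma (bars), under the deposited scaling (circles). The same difference is shown without interval after TMM scaling (squares). Triangles pointing up show it after subtraction of the mean receptor gene value, and triangles pointing down after subtraction of the receptor gene signal per kilobase of exon. The solid line marks 0 and dotted lines the fold threshold of 1. Muc13 lies above 0 at 1.18 under the deposited scaling, and Sh2d4a and Slc25a21 lie near −6.

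Muc13, a cell-surface mucin known mainly from gut epithelium, was the 1 member called higher in AML than in whole marrow, a call that held under the deposited scaling and not under TMM or quantile scaling. The gene, ENSMUSG00000022824, is protein coding and lies on chromosome 16, at 33614407 to 33640304 as the deposited table gives it. Whole marrow replicates 1 to 4 held 126, 201, 231 and 187 normalized counts, and lineage-negative replicates 1 to 4 held 2197, 3359.9, 3122 and 2573. AML ranged from 211 (replicate 3) through a median of 390.3 to 890.0 (replicate 5). Thus 6 of 7 AML libraries were above all whole marrow libraries, and none reached the lineage-negative range.

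The means of Muc13 were 186 ± 44.2 (SD, n = 4) in whole marrow, 453 ± 221 (SD, n = 7) in AML and 2813 ± 527 (SD, n = 4) in lineage-negative marrow. The log2 difference of AML from whole marrow was 1.18 (SE 0.29), with a limma adjusted p of 0.00167, and that from lineage-negative marrow was −2.75 (SE 0.29). Low whole marrow values may have taken part in the choice of Muc13, which favours a higher call, so this p is description only. The rise over whole marrow depended on the scaling: it was 0.49 after TMM scaling, with a limma adjusted p of 0.153. It was 0.39 after quantile scaling, with a limma adjusted p of 0.271. Without AML replicate 5, the highest library, it was 0.99, just under the fold threshold, with a limma adjusted p of 0.00238. With array weights it was 0.96.

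Mc5r encodes a receptor for melanocortin peptides, known best from exocrine glands. The gene (ENSMUSG00000007480) lies on chromosome 18, at 68470667 to 68475517 in the table's coordinates. Lineage-negative replicates 1 to 4 held 415, 679, 758 and 507 normalized counts, and whole marrow replicates 21.5, 33.5, 31.3 and 31.4. AML ran from 6.13 (replicate 3) through a median of 22.5 to 70.8 (replicate 5), an 11.6-fold range. The AML libraries straddled the whole marrow range, with 2 above it and 3 below.

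Mean Mc5r levels were 28.1 ± 21.3 (SD, n = 7) in AML, 29.4 ± 5.36 (SD, n = 4) in whole marrow, with 589.6 ± 157 (SD, n = 4) in lineage-negative marrow. AML kept 4.77% of the lineage-negative mean and whole marrow 4.99%. The log2 difference of AML from whole marrow was −0.36 (SE 0.44, 95% confidence interval −1.27 to 0.55) with a limma adjusted p of 0.485, which did not pass. AML minus lineage-negative marrow was −4.62 (SE 0.44). The diffuse signal expected for a gene of this exonic length came to 34.0% of the whole marrow mean and 4.29% of the AML mean. With that amount subtracted the difference turned to 0.22, again without passing. After TMM scaling it was −1.03, past the fold threshold, with a limma adjusted p of 0.0662, which did not pass.

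Scin encodes scinderin, a calcium-dependent actin-severing protein of the gelsolin family. The gene, ENSMUSG00000002565, lies on chromosome 12, at 40109768 to 40184227 in the table's coordinates. Whole marrow replicates 1 to 4 held 17.1, 34.8, 11.5 and 16.4 normalized counts, and lineage-negative replicates 394, 265, 383 and 256. AML values lay between 7.40 (replicate 6) and 63.7 (replicate 3), with a median of 22.9. Most AML libraries fell inside the whole marrow range, 2 above and 1 below it.

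The Scin means were 27.9 ± 19.0 (SD, n = 7) in AML, 19.9 ± 10.2 (SD, n = 4) in whole marrow, with 325 ± 73.8 (SD, n = 4) in lineage-negative marrow. AML differed from whole marrow by 0.32 on the log2 scale (SE 0.44, 95% confidence interval −0.60 to 1.23), with a limma adjusted p of 0.537, and by −0.34 after TMM scaling. The diffuse signal expected for its length was 38.5% of the whole marrow mean. With the mean receptor gene value of each library subtracted, the difference was 1.41, with a limma adjusted p of 0.0461, which passed. Under that subtraction 42.4% of all genes were called higher, so nothing particular to Scin is read from it. With the amount for its length subtracted it was 1.06, with a limma adjusted p of 0.110, which did not pass. AML minus lineage-negative marrow was −3.73 (SE 0.44), so that AML held 8.61% of the lineage-negative mean.

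Scml2, a chromatin protein related to the Polycomb group and known from the male germ line, had the steadiest lineage-negative level. The gene (ENSMUSG00000000037) lies on chromosome X, at 159865521 to 160041209 in the table's coordinates. Lineage-negative replicates 1 to 4 held 153, 163, 167 and 171 normalized counts, and whole marrow replicates 24.2, 34.8, 45.9 and 24.6. AML ranged from 15.9 (replicate 3) through 29.2 to 61.4 (replicate 5). Again the AML libraries straddled whole marrow, with 1 above its range and 3 below.

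Scml2 averaged 32.3 ± 15.5 (SD, n = 7) in AML and 32.4 ± 10.3 (SD, n = 4) in whole marrow, against 164 ± 7.61 (SD, n = 4) in lineage-negative marrow. The log2 difference of AML from whole marrow was −0.08 (SE 0.33, 95% confidence interval −0.77 to 0.61), with a limma adjusted p of 0.851. It was −0.75 after TMM scaling and 1.07 with the diffuse signal for its length subtracted, neither past the test. AML minus lineage-negative marrow was −2.43 (SE 0.33). AML held 19.7% of the lineage-negative mean, the highest share among the 8 genes, and whole marrow 19.8%, of which the diffuse signal expected for this length would be 48.0%.

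Shank3 encodes a scaffold protein known from the postsynaptic density of excitatory synapses. The gene (ENSMUSG00000022623) lies on chromosome 15, at 89383826 to 89444464 in the table's coordinates. Lineage-negative replicates 1 to 4 held 1097, 672, 826 and 926 normalized counts, and whole marrow replicates 31.4, 33.7, 82.1 and 73.0. AML ran from 3.24 (replicate 7) through a median of 13.5 to 31.3 (replicate 4). The highest AML library lay just below the lowest whole marrow library.

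Mean Shank3 was 15.7 ± 10.1 (SD, n = 7) in AML, 55.1 ± 26.2 (SD, n = 4) in whole marrow, with 880.4 ± 178 (SD, n = 4) in lineage-negative marrow. Shank3 fell in AML against whole marrow by 1.89 on the log2 scale (SE 0.45), lower in 7 of 7 libraries, with a limma adjusted p of 0.00138. That p is description only, since low AML values may have taken part in the choice of Shank3. Its exons are the longest of the 8, 9.189 kb, and the diffuse signal expected for this length was 17.4 to 33.0 in the whole marrow libraries, 42.7% of their mean, and 3 of 4 lay above it. With this amount subtracted, the difference was −0.40, with a limma adjusted p of 0.700, and the call was lost. AML minus lineage-negative marrow was −5.97 (SE 0.45), and AML held 1.79% of the lineage-negative mean.

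Slc22a3 encodes a low-affinity transporter of organic cations, among them histamine and other monoamines. The gene (ENSMUSG00000023828) lies on chromosome 17, at 12637847 to 12726591 in the table's coordinates. Whole marrow replicates 1 to 4 held 51.2, 73.7, 109 and 88.7 normalized counts, and lineage-negative replicates 1129, 1517, 1485 and 1097. AML ranged from 19.1 (replicate 1) through 40.4 to 48.1 (replicate 5), all below the lowest whole marrow library.

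Slc22a3 averaged 35.5 ± 10.2 (SD, n = 7) in AML, 80.7 ± 24.5 (SD, n = 4) in whole marrow, with 1307 ± 225 (SD, n = 4) in lineage-negative marrow. It fell in AML against whole marrow by 1.17 on the log2 scale (SE 0.27), with a limma adjusted p of 0.0011, and was lower in 7 of 7 libraries. Here too the p is description only, since low AML values may have taken part in the choice of Slc22a3. With the diffuse signal for its length subtracted, the difference was −0.96, under the fold threshold, with a limma adjusted p of 0.0112. AML minus lineage-negative marrow was −5.20 (SE 0.27), and AML held 2.72% of the lineage-negative mean. Mast cell and megakaryocyte genes moved beside it. For mast cells and basophils the sum over 8 genes was 1866 to 7553 in AML, 4567 to 11278 in whole marrow and 24538 to 42765 in lineage-negative marrow, with 6 of 8 lower in AML than in whole marrow past the test and none at 0 throughout. For megakaryocytes the sum over 8 genes was 174 to 741.6 in AML, 794 to 2231 in whole marrow and 2940.1 to 4032 in lineage-negative marrow, with 8 of 8 lower in AML than in whole marrow and 6 of 8 lower than in lineage-negative marrow past the test. The part of either cell type in the fall of Slc22a3 was not tested.

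Sh2d4a, an adaptor protein with an SH2 domain, was close to absent in AML. The gene, ENSMUSG00000053886, lies on chromosome 8, at 68729219 to 68800351 in the table's coordinates. Whole marrow replicates 1 to 4 held 50.3, 133, 147 and 166 normalized counts, and lineage-negative replicates 458, 329, 255 and 540.4. In AML the lowest value was 0, the median 1.12 and the highest 4.94 (replicate 6), with 3 libraries listed at 0 and 6 of 7 at or under the floor. The 7 AML libraries held about 8 reads of Sh2d4a in all.

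The Sh2d4a means were 1.28 ± 1.75 (SD, n = 7) in AML, 124 ± 51.2 (SD, n = 4) in whole marrow, with 396 ± 128 (SD, n = 4) in lineage-negative marrow. With AML libraries below 3 reads raised to that floor, AML was at least 35.6-fold lower than whole marrow and at least 113-fold lower than lineage-negative marrow. The fitted log2 differences were −5.94 and −7.68, which depend on the pseudocount. No p is given, since low AML values may have taken part in the choice of this gene. The diffuse signal does not fill the whole marrow value: the amount expected for its length was 5.62% of the mean.

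Slc25a21 encodes a mitochondrial carrier of oxodicarboxylates, which serves the breakdown of lysine and tryptophan. The gene, ENSMUSG00000035472, lies on chromosome 12, at 56759419 to 57244257 in the table's coordinates. Whole marrow replicates 1 to 4 held 108, 221, 252 and 311 normalized counts, and lineage-negative replicates 417, 452, 451 and 613. AML ran from 0 through a median of 1.12 to 6.17 (replicate 6), with 2 libraries listed at 0 and 4 of 7 at or under the floor. About 16 reads of it were counted over the 7 AML libraries.

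Mean Slc25a21 was 2.48 ± 2.55 (SD, n = 7) in AML, 223 ± 85.5 (SD, n = 4) in whole marrow, with 483 ± 88.3 (SD, n = 4) in lineage-negative marrow. With AML libraries below the floor raised to it, it was at least 54.7-fold lower than whole marrow and at least 118-fold lower than lineage-negative marrow. Lineage-negative marrow exceeded whole marrow by 1.20 on the log2 scale (SE 0.58, 95% confidence interval −0.01 to 2.40), the smallest such difference among the 8 genes. After TMM scaling that difference was 0.51. Whole marrow held 46.1% of the lineage-negative mean of Slc25a21 and 31.4% of that of Sh2d4a, against 4.99% to 19.8% for the other 6.

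Erythroid progenitor and eosinophil genes were also lowest in AML. Summed over 10 of them, AML held 2804 to 4494 normalized counts, whole marrow 23759 to 59885 and lineage-negative marrow 40727 to 52310. All 10 fell in AML against whole marrow past the limma test and 9 of 10 fell against lineage-negative marrow, with none at 0 throughout. Car2, which encodes a carbonic anhydrase of red cell precursors, averaged 232 in AML, 16424 in whole marrow and 11967 in lineage-negative marrow. Summed over 8 eosinophil genes, AML held 970 to 3005, whole marrow 25102 to 56129 and lineage-negative marrow 8136 to 43775. All 8 fell in AML against whole marrow and 7 of 8 against lineage-negative marrow past the limma test. The part of erythroid cells and eosinophils in the values of Sh2d4a and Slc25a21 was not tested.

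**Figure D3:**
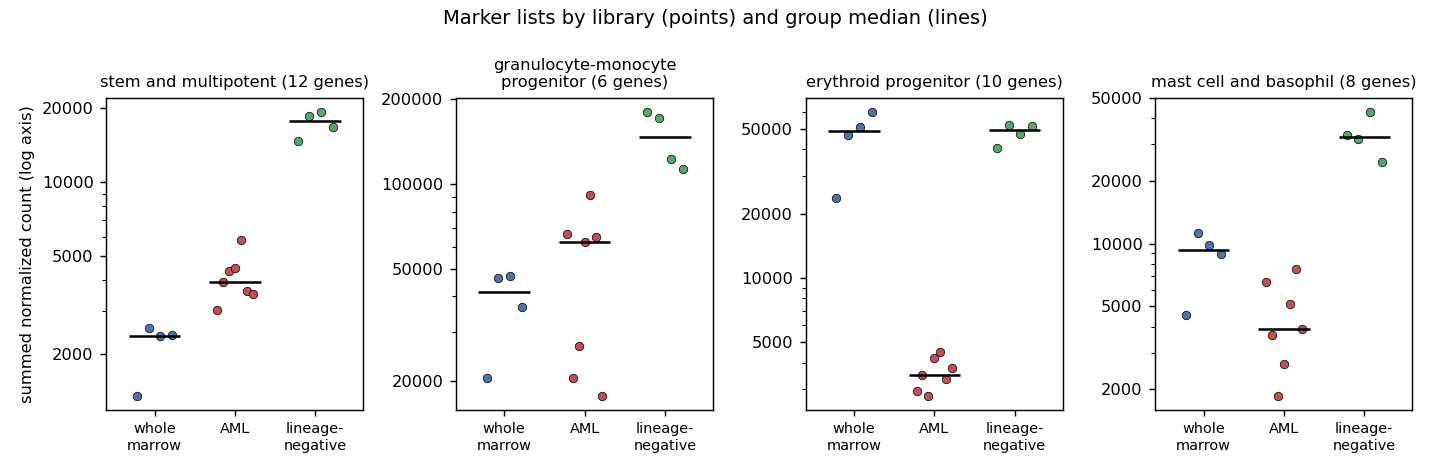
Summed normalized counts (vertical, log axis) of 4 marker lists in each library (points), by group (horizontal), with the group median as a line. Erythroid progenitor genes lie at 2804 to 4494 in AML, below both normal groups, while stem cell genes in AML lie between whole and lineage-negative marrow.

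The start regions of 5 genes are shown because these stand for the outcomes in AML: above whole marrow under the deposited scaling (Muc13), close to whole marrow (Scin), below it (Shank3 and Slc22a3) and near 0 (Slc25a21). Each window is 300 bases of RefSeq sequence on GRCm38.p6, from 250 bases before the start site to 50 after it, on the strand of the gene. These coordinates belong to another assembly than the gene positions of the table and are not to be mixed with them. Windows were used for 6 of the 8 genes, 8 windows in all. Mc5r was left out by a rule on its chromosome, and no window was found for Sh2d4a. Capitals mark exact matches on either strand to a GATA motif (AGATAA or TGATAA), a RUNX motif (TGTGGT) or an ETS motif (GGAAGT), letters bound by factor families known from blood progenitors. Of all 32851 windows in the table, 18.61% hold the GATA letters, 16.76% the RUNX letters and 23.77% the ETS letters. A match is a description of letters, not of binding.
Muc13, chr16:33794239-33794538, plus strand: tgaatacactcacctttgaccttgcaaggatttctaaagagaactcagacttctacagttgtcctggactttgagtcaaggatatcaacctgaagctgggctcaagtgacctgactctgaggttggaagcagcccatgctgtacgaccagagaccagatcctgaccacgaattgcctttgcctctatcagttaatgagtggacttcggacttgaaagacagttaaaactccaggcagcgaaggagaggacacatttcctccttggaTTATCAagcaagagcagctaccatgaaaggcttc
Slc25a21, chr12:57197423-57197722, minus strand: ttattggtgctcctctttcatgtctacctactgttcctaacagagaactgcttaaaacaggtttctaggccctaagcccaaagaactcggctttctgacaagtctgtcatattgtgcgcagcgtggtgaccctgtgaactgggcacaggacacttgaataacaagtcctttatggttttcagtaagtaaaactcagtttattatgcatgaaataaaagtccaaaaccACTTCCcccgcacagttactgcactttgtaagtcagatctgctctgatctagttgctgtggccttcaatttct
Scin, chr12:40134179-40134478, minus strand: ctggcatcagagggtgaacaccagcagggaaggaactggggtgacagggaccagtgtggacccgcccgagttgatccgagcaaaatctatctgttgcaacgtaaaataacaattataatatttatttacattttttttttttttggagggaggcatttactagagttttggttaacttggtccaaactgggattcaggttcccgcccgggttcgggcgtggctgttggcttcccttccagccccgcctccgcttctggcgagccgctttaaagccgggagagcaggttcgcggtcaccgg
Shank3, chr15:89499358-89499657, plus strand: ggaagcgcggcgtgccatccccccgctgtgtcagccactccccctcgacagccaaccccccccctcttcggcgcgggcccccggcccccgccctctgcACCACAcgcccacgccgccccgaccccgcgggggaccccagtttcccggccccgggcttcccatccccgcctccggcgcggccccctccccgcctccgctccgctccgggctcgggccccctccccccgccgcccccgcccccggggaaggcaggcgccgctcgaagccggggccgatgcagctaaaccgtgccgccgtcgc
Slc22a3, chr17:12507655-12507954, minus strand: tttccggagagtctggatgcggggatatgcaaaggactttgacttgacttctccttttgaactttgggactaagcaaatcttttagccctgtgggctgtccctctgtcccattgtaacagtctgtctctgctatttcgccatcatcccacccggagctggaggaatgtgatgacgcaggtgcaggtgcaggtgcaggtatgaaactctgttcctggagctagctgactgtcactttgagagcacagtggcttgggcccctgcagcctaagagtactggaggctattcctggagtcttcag

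Matches were few. The 1 GATA match among them was in the Muc13 window shown, 17 bases after its start site. The other Muc13 window held no match to any of the 3 motifs, and neither did those of Scin, Slc22a3 and Scml2. Slc25a21 had an ETS match 23 bases before the start site shown and, in a second window, a RUNX match 66 bases before that start. Shank3 had a RUNX match 152 bases before its start, in a window of 81.0% G and C with 40 CpG, against a median of 52.67% and 7 CpG over all windows.

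Levels of different genes were compared per kilobase of exon. In lineage-negative marrow Muc13 led with a mean of 926 normalized counts per kilobase, followed by Slc22a3 at 289.6. Mc5r at 151, Sh2d4a at 145, Scin at 108, Slc25a21 at 99.2 and Shank3 at 95.8 lay within a narrow band, and Scml2 was lowest at 26.9. In AML Muc13 led again at 149 per kilobase, and Scin at 9.32, Slc22a3 at 7.87, Mc5r at 7.20 and Scml2 at 5.31 came next. Shank3 at 1.71, Slc25a21 at 0.509 and Sh2d4a at 0.471 closed the order. The order differed in whole marrow, where Slc25a21 at 45.8 and Sh2d4a at 45.6 followed Muc13 at 61.2.

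The AML libraries did not rank alike over the 8 genes. Replicate 5 was the highest AML library for Mc5r, Slc22a3, Muc13 and Scml2, replicate 4 for Shank3, replicate 3 for Scin, and replicate 6 for Sh2d4a and Slc25a21. Replicate 5 also had the highest AML sum of stem and multipotent genes, 5849, and of granulocyte-monocyte progenitor genes, 91591. Over the 7 AML libraries the latter ran from 17798 to 91591, against 20573 to 47132 in whole marrow and 113098 to 180374 in lineage-negative marrow. The part of these cells in the Mc5r and Muc13 values of replicate 5 was not tested.

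For each gene, the 3 genes with the most similar pattern were taken by Pearson r on log2 values over the 15 libraries, among 10868 protein-coding genes. The r values describe mostly the 3 group means, which all 15 points share, and no p is given. Sh2d4a and Slc25a21 had neighbours in common. Slc25a21 was most like Gata1 (r = 0.993), a transcription factor of the erythroid line, Epor (r = 0.993), the erythropoietin receptor, and Samd14 (r = 0.991), and Sh2d4a was most like Samd14 (r = 0.992), Gata1 (r = 0.987) and Odc1 (r = 0.986). Gata1 averaged 22.4 ± 12.6 (SD, n = 7) in AML, 808 ± 268 (SD, n = 4) in whole marrow, with 1621 ± 112 (SD, n = 4) in lineage-negative marrow. The r between Sh2d4a and Slc25a21 themselves was 0.992.

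The neighbours of all 8 genes had their highest mean in lineage-negative marrow, and those of the other 6 were as follows. Shank3 was most like Gata2 (r = 0.981), a transcription factor of stem and mast cells, then Bag2 (r = 0.970) and Cttn (r = 0.970). Gata2 averaged 102 ± 62.8 (SD, n = 7) in AML, 269.6 ± 52.8 (SD, n = 4) in whole marrow, with 3121 ± 692 (SD, n = 4) in lineage-negative marrow. Mc5r was most like Rab38 (r = 0.987), Angpt1 (r = 0.984), a ligand of the receptor TEK, and Zik1 (r = 0.979), and Scml2 most like Rab38 (r = 0.976), Dcaf1 (r = 0.971) and Adgra3 (r = 0.960). Slc22a3 was most like Rab4a (r = 0.988), Gna14 (r = 0.982) and Zfp507 (r = 0.976). Muc13 was most like Wdr12 (r = 0.988) and Polr1b (r = 0.984), which serve ribosome production, and Abhd14a (r = 0.984), and Scin most like Bloc1s5 (r = 0.942), Fzd6 (r = 0.940) and Adgrl2 (r = 0.934). Within groups, after removal of the group means, r over all these pairs lay between 0.52 and 0.92. The neighbours were picked by r over the same libraries, which includes these deviations, and r for other gene pairs was not worked out. Nothing is therefore read from this range.

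**Figure D4:**
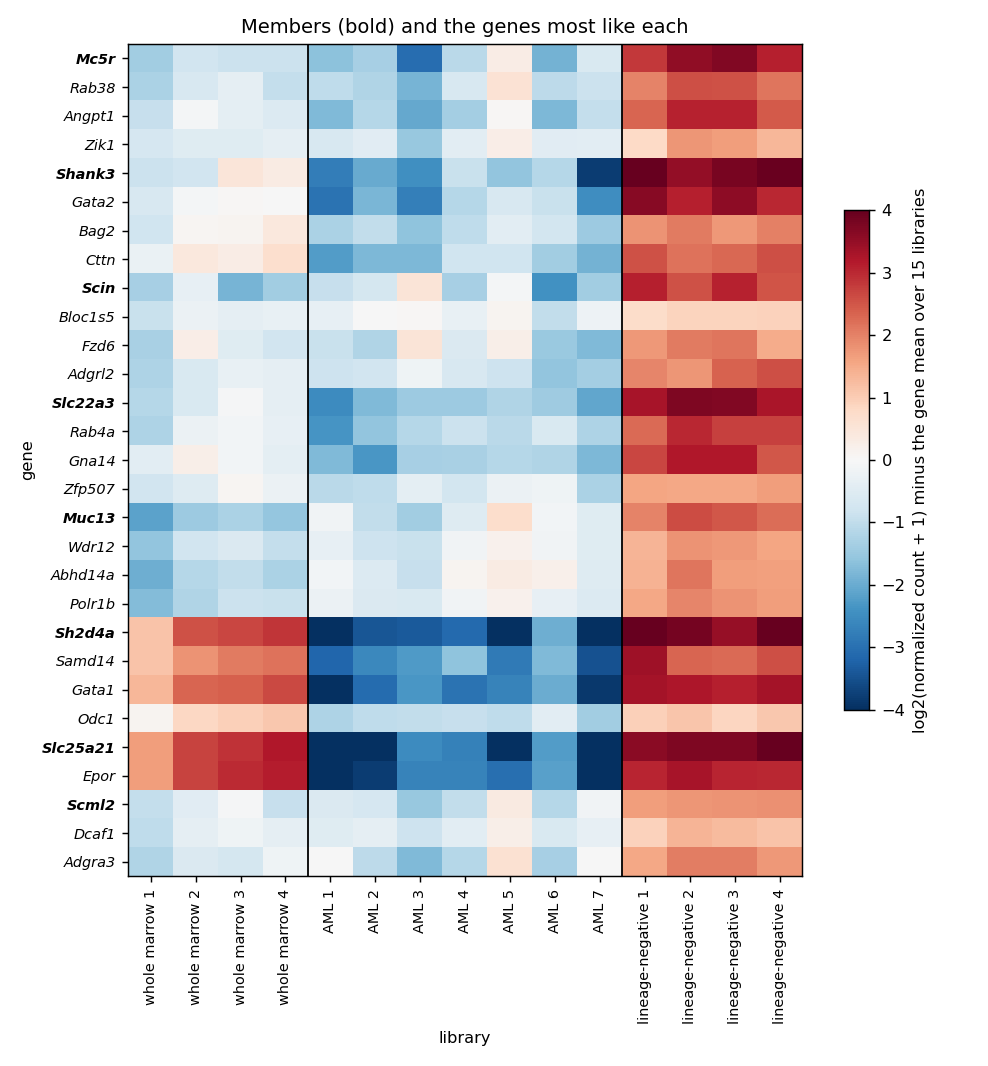
The 8 genes (bold) and the genes most similar to each (rows) in the 15 libraries (columns), with the log2 value minus the mean of the gene over all libraries as colour, red for higher and blue for lower, the scale ending at 4 in both directions. All rows are highest in lineage-negative marrow by their group mean, and Sh2d4a, Slc25a21 and their neighbours are lower in every AML library than in every normal library.

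Other genes of the same protein families were followed to see whether they moved with the 8. Of 94 listed genes, 92 were matched by symbol and 70 passed the filter. Against whole marrow, limma called 21 of 70 higher in AML and 12 lower, beside 27.3% and 11.3% of all genes. After TMM scaling the counts were 1 and 14, beside 4.77% and 16% of all genes, so the change in the counts was not particular to these families. Against lineage-negative marrow, 13 of 70 were called higher and 14 lower, beside 17.7% and 12.5% of all genes. Between the normal groups, 29 of 70 were called higher in lineage-negative marrow and 11 lower, beside 33.1% and 17.2% of all genes. These counts were 14 and 19 after TMM scaling, for which the shares of all genes were not worked out. The median log2 difference over the 70 genes was 0.71 for AML minus whole marrow, −0.25 for AML minus lineage-negative marrow and 0.76 for lineage-negative minus whole marrow, beside 0.67, 0.02 and 0.59 over all genes. Genes named below to account for a small count were chosen after their values were seen.

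Scin was lower in AML than in lineage-negative marrow, but no other gelsolin family gene was called lower there. Of 5 family genes kept, 3 were called higher in AML than in lineage-negative marrow, while none was called against whole marrow in either direction. Gsn, which encodes gelsolin, averaged 5555 ± 1615 (SD, n = 7) in AML, 4414 ± 1413 (SD, n = 4) in whole marrow, with 565 ± 127 (SD, n = 4) in lineage-negative marrow. It rose by 3.27 on the log2 scale (SE 0.23) over lineage-negative marrow, with a limma adjusted p of 1.1e-09. Svil, encoding supervillin, rose by 1.60 (SE 0.24) with a limma adjusted p of 1.8e-05, and Capg, a capping protein, by 2.10 (SE 0.21) with a limma adjusted p of 1.1e-07. Markers of mature myeloid cells rose beside them: 10 of 10 neutrophil genes and 8 of 8 monocyte and macrophage genes were called higher in AML than in lineage-negative marrow. Their part in these rises was not tested.

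Of 7 organic cation transporter relatives of Slc22a3 kept, 3 were called higher and 1 lower in AML than in whole marrow, but 1 higher and 2 lower after TMM scaling. Against lineage-negative marrow 1 was called higher and 2 lower. Slc22a15 averaged 1001 in AML, 702 in whole marrow and 131 in lineage-negative marrow, and rose by 2.92 on the log2 scale (SE 0.24) over the last, with a limma adjusted p of 7.8e-09. Slc22a23 averaged 70.3 in AML, 541 in whole marrow and 442 in lineage-negative marrow. It fell by 3.02 against whole marrow (SE 0.37, limma adjusted p = 3.3e-06) and fell by 2.83 against lineage-negative marrow (SE 0.37, limma adjusted p = 3.8e-06). Slc22a18 rose by 2.07 over whole marrow (SE 0.46), with a limma adjusted p of 0.00079, and differed from lineage-negative marrow by 0.21, which did not pass. The second gene lower than in lineage-negative marrow was Slc22a17, at −1.26 (SE 0.45).

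Of 10 mucin and sialomucin genes kept, 2 were called higher and 5 lower in AML than in whole marrow, and none higher and 5 lower after TMM scaling. Against lineage-negative marrow 2 were called higher and 3 lower. Spn, which encodes the leukocyte sialomucin CD43, averaged 12410 ± 1874 (SD, n = 7) in AML, 5453 ± 885 (SD, n = 4) in whole marrow, with 16186 ± 3213 (SD, n = 4) in lineage-negative marrow. Its rise over whole marrow was 1.19 on the log2 scale (SE 0.19, limma adjusted p = 4.6e-05), and 0.50 after TMM scaling, which did not pass. Cd34, the progenitor sialomucin, averaged 1464 ± 937 (SD, n = 7), 576 ± 119 (SD, n = 4) and 6246 ± 1536 (SD, n = 4) in the same order, the order that Muc13 had as well. Against lineage-negative marrow Cd34 fell by 2.32 (SE 0.37), with a limma adjusted p of 4.4e-05, and its rise over whole marrow of 1.11 (SE 0.37, limma adjusted p = 0.0146) was 0.42 after TMM scaling, which did not pass. Cd164 differed from lineage-negative marrow by 0.42, which did not pass. Muc3 and Muc4 averaged 2.91 and 7.23 in AML against 47.2 and 71.4 in whole marrow, and were called lower. In lineage-negative marrow they averaged 0 and 0.441. How much of their whole marrow values is diffuse signal was not worked out, so no loss in AML is read from these calls.

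SH2 adaptors other than Sh2d4a were mostly present in AML. Of 9 kept, 6 were called higher in AML than in whole marrow and none lower, although after TMM scaling none was called in either direction. Against lineage-negative marrow 5 were called higher and 1 lower. Sh2d1a, the lymphocyte adaptor SAP, averaged 86.2 in AML, 12.7 in whole marrow and 0.661 in lineage-negative marrow, and rose over the last by 4.97 on the log2 scale (SE 0.68, limma adjusted p = 6.5e-06). Sh2d1b1 rose by 2.66 (SE 0.25, limma adjusted p = 5.8e-08), Sh2b3, a negative regulator of cytokine signalling, by 1.43 (SE 0.22, limma adjusted p = 2.3e-05) and Sh2d3c by 1.47 (SE 0.23, limma adjusted p = 3.8e-05). Beside the same mature myeloid genes, 5 of 8 T and NK cell genes were called higher in AML than in lineage-negative marrow and 1 lower, with sums of 1301 to 3912 and 1448 to 1943, and the part of these cells was not tested. The 1 lower adaptor was Sh2d5, which fell by 1.45 (SE 0.30, limma adjusted p = 0.000513).

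Of 12 mitochondrial carriers and lysine degradation genes kept, 4 were called higher and 1 lower in AML than in whole marrow, but none higher and 1 lower after TMM scaling. Against lineage-negative marrow 3 were called lower and none higher. The 3 were Dhtkd1, Aldh7a1 and Gcdh, enzymes of the pathway that Slc25a21 serves. Dhtkd1 averaged 2.77 ± 3.08 (SD, n = 7) in AML, 24.5 ± 12.2 (SD, n = 4) in whole marrow, with 71.5 ± 38.0 (SD, n = 4) in lineage-negative marrow. It fell by 3.00 on the log2 scale against whole marrow (SE 0.62, limma adjusted p = 0.000386) and by 4.53 against lineage-negative marrow (SE 0.62, limma adjusted p = 6.1e-06). Against lineage-negative marrow Aldh7a1 fell by 2.03 (SE 0.21, limma adjusted p = 1.5e-07) and Gcdh fell by 1.20 (SE 0.19, limma adjusted p = 4.4e-05), while their differences from whole marrow, 0.28 and 0.30, did not pass. Slc25a22, a glutamate carrier, rose over whole marrow by 1.54 (SE 0.28, limma adjusted p = 0.000118) and by 0.85 after TMM scaling, under the threshold. The widely used genes Dlst and Slc25a11 differed from lineage-negative marrow by −0.35 and 0.60, which did not pass.

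Of 17 Polycomb and MBT-domain genes kept beside Scml2, 1 was called lower in AML than in lineage-negative marrow, Pcgf6, and none higher. Pcgf6 fell by 1.47 on the log2 scale (SE 0.26, limma adjusted p = 9.4e-05). Against whole marrow 3 were called higher and none lower, and none in either direction after TMM scaling: Phc2 was 1.25 higher (SE 0.20, limma adjusted p = 3.2e-05), L3mbtl3 1.07 (SE 0.18, limma adjusted p = 6.9e-05) and L3mbtl2 1.03 (SE 0.21, limma adjusted p = 0.000353). Phc3 differed from whole marrow by 0.96, under the threshold. Between the normal groups 10 of 17 were called higher in lineage-negative marrow, and 4 after TMM scaling.

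Among 8 scaffold partners of Shank3 kept, 3 were called higher and 3 lower in AML than in whole marrow, and none higher and 4 lower after TMM scaling. Against lineage-negative marrow 2 were called in each direction. Sharpin and Dlgap4, the most abundant, averaged 1283 and 921 in AML, 633 and 453 in whole marrow and 801 and 328 in lineage-negative marrow. Their rises over whole marrow of 1.03 and 1.06 on the log2 scale were 0.33 and 0.36 after TMM scaling, which did not pass. Shank2 and Dlgap1 averaged 2.54 and 7.30 in AML against 37.3 and 42.5 in whole marrow, with 9.18 and 1.26 in lineage-negative marrow. The share of diffuse signal in those whole marrow values was not worked out either. Only 2 melanocortin genes were kept beside Mc5r: Mc2r, the corticotropin receptor, averaged 0.121 in AML, 5.78 in whole marrow and 41.2 in lineage-negative marrow, and Mc1r 2.20, 7.36 and 15.5. Both fell in AML against whole marrow past the limma test, Mc2r by 2.53 (SE 0.42, adjusted p = 6.3e-05) and Mc1r by 1.71 (SE 0.57, adjusted p = 0.0141). The same 2 fell against lineage-negative marrow, Mc2r by 5.22 (SE 0.42, limma adjusted p = 7.1e-09) and Mc1r by 2.71 (SE 0.57, limma adjusted p = 0.000657). Fitted differences of genes with so few reads in a group, as of Mc2r, Dhtkd1 and Sh2d1a, depend on the pseudocount. In whole marrow the Mc2r mean lay below the mean receptor gene value of all 4 libraries and the Mc1r mean below that of 3 of 4, so both falls against whole marrow rest on values no higher than the diffuse signal.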

How the data were processed

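Total RNA was extracted with TRIzol and libraries were made with a stranded total RNA kit, per the labels. What the authors deposited is a signal per gene and library, estimated reads after division by a library size factor, here called normalized counts. The submitters' processing notes name Partek, STAR, DESeq2 and mm10. No versions, and no strand setting for counting, are given in the sources used here, so overlapping and antisense genes are not separated. Table starts matched GRCm38 annotation (GENCODE M21) for 861 of 38066 shared identifiers, while gene spans from start to end were equal for 37557. Gene positions are therefore printed as deposited. Exonic lengths alone were taken from that annotation and were not checked against the table.

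Low values were whole multiples of a per-library step in 82.2% to 87.1% of cases (tolerance 0.02 of a step, below 20 steps). The step gave each library's depth and the 3-read floor. Whole reads were not recovered, so no count model was used.

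Genes with at least 10 normalized counts in at least 4 libraries were kept (18941, with 19374 removed). On log2 of the deposited value plus a pseudocount of 1, limma 3.58.1 in R 4.3.3 fitted the 3 groups together (trend, two-sided, Benjamini-Hochberg over genes kept). Calls needed an adjusted p under 0.05 and a log2 difference of at least 1. Simulated data gave 200 of 200 changed genes and 13 unchanged genes called, over 18941 genes, for AML minus whole marrow. They had a common dispersion, group means equal apart from the planted changes, no diffuse signal and no scaling shift of whole marrow. Every planted change was larger than the differences of Muc13 and Slc22a3, so the recovery does not speak for those calls. Groups and replicate numbers came from the titles.

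The 8 genes and all gene lists were chosen with earlier results of these data known. Named are the 8, their 3 most similar genes by Pearson r (mean of at least 50), from each family the 2 called genes with the largest AML minus whole marrow difference and the 2 most abundant, and up to 3 examples of a marker list. Alternatives were pseudocounts of 0.1 and 5, other filters, TMM and quantile scaling, receptor background subtraction, a fit of AML and whole marrow alone, array weights, a replicate block and leaving out each library. Subtraction per kilobase of exon was chosen after seeing the data.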

Additional observations from a re-analysis of the deposited data

Results flagged for a closer look

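Within the 7 AML libraries, Sh2d4a stood apart in replicate 6, which held 4.94 normalized counts while the others held 0 to 1.69. The gap to the next library was 0.658 of the group's range, and 24 groups of values were examined in this way. A flag by chance is therefore possible, and its rate was not worked out for values like these, with 3 libraries at 0. Replicate 6 was also the AML library with the most diffuse signal, a mean of 3.81 normalized counts over receptor genes against 0.465 to 1.33 in the others, and the amount expected for the length of Sh2d4a was 2.76. The value rests on about 4 reads, and without replicate 6 the AML mean of Sh2d4a was 0.673.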

How the results depend on the processing

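The count of the 8 genes called higher in AML than in whole marrow, 1 as reported, was 0 with TMM scaling, quantile scaling, array weights or the replicate block. It was 2 with the mean receptor gene value subtracted, when Scin joined Muc13. Of all genes, 27.3% were called higher as reported, 4.77% with TMM scaling and 13.1% with quantile scaling. The share was 19.9% with array weights, 27.8% with the replicate block and 42.4% with the mean receptor gene value subtracted, so nothing is read from these counts. Leaving out 1 library at a time gave 0 to 1, with 0 without AML replicate 5, when 26.6% of all genes were called higher. The count called lower, 4 with Sh2d4a and Slc25a21 included, was 2 with the background subtracted per kilobase of exon, which lost Shank3 and Slc22a3. Of all genes, 11.3% were called lower as reported and 6.13% with that subtraction. In the replicate block fit Muc13 was 0.85 higher (limma adjusted p = 0.0312), under the fold threshold. Libraries of different groups with the same number did not deviate together (r of −0.29 to 0.17 over 12 pairs, 2 of them over 0.1). There were no known pairs to set this against, so it cannot exclude that samples with the same number were paired. The differences of Mc5r, Scin and Scml2 from whole marrow, none called as reported, had both signs over the alternatives.

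Of the family genes, those called higher in AML than in whole marrow, 21, were 1 with TMM and 4 with quantile scaling. The shares of all genes were 27.3% as reported, 4.77% with TMM and 13.1% with quantile scaling. Those called lower, 12, were 23 without a filter, 1 at a mean of at least 50 and 7 with background subtracted per kilobase. In the same order, 11.3%, 29.6%, 3.62% and 6.13% of all genes were called lower. Such shares under the alternatives were not worked out for the comparisons with lineage-negative marrow. Those lower in AML than in lineage-negative marrow, 14, were 6 at a mean of at least 50. Between the normal groups, 29 higher became 14 with TMM and 18 with quantile scaling. The 11 lower became 23 without a filter, 4 at a mean of at least 50, 19 with TMM, 17 with quantile scaling and 5 with background subtracted per kilobase. The cause was not tested, except that filters change which genes are tested. Of the values of the 8 genes for AML minus whole marrow over all alternatives, 199 kept their side of the threshold, 8 were lost and 1 was gained. The fitted difference of Sh2d4a from lineage-negative marrow ran from −9.44 to −5.98 over the alternatives and that of Slc25a21 from −8.79 to −6.08, since AML held so few reads. Count models planned for whole reads were not run, because whole reads were not recovered. At these depths an AML level below 3 reads cannot be told from 0.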
